A study of Mus musculus with 6 samples.

Results

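The genes Axl, Mertk, Tyro3, Gas6, Pros1 and Mfge8 encode the receptor tyrosine kinases and bridging proteins by which phagocytes bind dying cells. They were taken by symbol from a deposited table of 55291 gene symbols, in which all 6 were found. The table holds messenger RNA of macrophages from mouse liver tumours (hepatocellular carcinoma), with 3 libraries labelled TREM2+ and 3 labelled TREM2-, TREM2 being a lipid-sensing surface receptor. The labels give no strain, age, tumour model, treatment or way of telling TREM2+ from TREM2- cells, so these are not stated for either group. Nor do they tie replicates to animals, and the p-values below therefore reflect only how far these samples scatter, part of which could be technical.

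A dying cell exposes phosphatidylserine on its surface. GAS6 and protein S (PROS1) bind that lipid through a domain that is carboxylated with vitamin K, and at their other end bind the receptors TYRO3, AXL and MERTK, which start engulfment and dampen inflammatory signalling. Protein S is a ligand of MERTK and TYRO3, whereas GAS6 binds all members of the receptor family with AXL as its tightest partner. MFGE8 bridges the same lipid to integrins instead. In liver, MERTK and AXL are described on resident Kupffer cells and recruited macrophages, and GAS6 also in endothelial and stellate cells.

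All 6 genes are protein coding in the GENCODE M21 annotation of mm10. The receptor genes are Axl (ENSMUSG00000002602.16, chromosome 7, 25757273 to 25788705, minus strand), Mertk (ENSMUSG00000014361.5, chromosome 2, 128698956 to 128802894, plus strand) and Tyro3 (ENSMUSG00000027298.17, chromosome 2, 119797733 to 119818104, plus strand). Those of the ligands are Gas6 (ENSMUSG00000031451.6, chromosome 8, 13465374 to 13494490, minus strand), Pros1 (ENSMUSG00000022912.8, chromosome 16, 62854307 to 62929346, plus strand) and Mfge8 (ENSMUSG00000030605.15, chromosome 7, 79133768 to 79149060, minus strand). Overlaps with other annotated genes were measured for Mertk and Gas6, given below, and not for Axl, Tyro3, Pros1 or Mfge8.

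The start regions of 4 genes are shown because Axl, Gas6 and Mertk stood higher in TREM2+ libraries and Pros1, the most abundant ligand, did not. Each runs 5′ to 3′ on the gene's strand from 250 bases before to 50 bases after the RefSeq start (GRCm38.p6, the build mm10 is made from). The windows are chr7:25788684-25788983 for Axl, chr8:13494486-13494785 for Gas6, chr2:128698665-128698964 for Mertk and chr16:62854057-62854356 for Pros1. Capitals mark matches to the GC box, the letters GGGCGG on either strand.
Axl: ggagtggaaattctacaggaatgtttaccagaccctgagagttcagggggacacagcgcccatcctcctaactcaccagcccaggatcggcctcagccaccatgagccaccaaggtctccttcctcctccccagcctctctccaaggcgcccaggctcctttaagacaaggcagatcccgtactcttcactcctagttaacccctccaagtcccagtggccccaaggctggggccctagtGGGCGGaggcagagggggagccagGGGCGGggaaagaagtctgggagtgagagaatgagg
Gas6: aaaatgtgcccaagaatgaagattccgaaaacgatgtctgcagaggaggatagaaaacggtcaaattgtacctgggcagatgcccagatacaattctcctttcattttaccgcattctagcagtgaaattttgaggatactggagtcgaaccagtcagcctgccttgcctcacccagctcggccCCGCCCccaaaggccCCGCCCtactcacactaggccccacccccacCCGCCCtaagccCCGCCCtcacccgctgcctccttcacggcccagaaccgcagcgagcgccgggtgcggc
Mertk: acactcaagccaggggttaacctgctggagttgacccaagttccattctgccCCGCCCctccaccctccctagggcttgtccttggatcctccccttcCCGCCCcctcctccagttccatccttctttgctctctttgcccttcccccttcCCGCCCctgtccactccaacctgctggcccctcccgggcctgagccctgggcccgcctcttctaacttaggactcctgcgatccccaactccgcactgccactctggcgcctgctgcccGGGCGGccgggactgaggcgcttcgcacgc
Pros1: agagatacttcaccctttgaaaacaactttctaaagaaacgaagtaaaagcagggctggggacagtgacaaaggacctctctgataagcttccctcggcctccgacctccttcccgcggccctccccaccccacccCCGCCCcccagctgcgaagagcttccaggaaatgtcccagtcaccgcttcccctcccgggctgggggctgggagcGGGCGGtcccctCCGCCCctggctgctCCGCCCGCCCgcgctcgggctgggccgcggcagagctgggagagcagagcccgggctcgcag

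The GC box matched 2 times in Axl, 4 in Gas6, 4 in Mertk and 5 in Pros1, and 6 and 4 times in Tyro3 and Mfge8. Some of the matches in Tyro3 and Pros1 overlap each other. At least 1 match was held by 35.7% of all 32851 such windows, and G and C made up 58.3% (Gas6) to 73.3% (Tyro3) of these 6 windows against a median of 52.7% over all. The PU.1 core GAGGAA, on either strand, was found 1 time each in Axl and Mfge8 and in 28.3% of all windows. Of the 6 windows, 0 held the AP-1 site TGANTCA, the nuclear receptor half-site AGGTCA, the MAF half-site TGCTGA, the E-box CACGTG or the TATA box TATAAA, which 7.81%, 16.3%, 19.5%, 7.15% and 13.6% of all windows held. These matches describe letters in the windows and no binding was measured.

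Recovered depth was 11522970 to 19975865 reads per library. Levels are TPM, here the deposited length-scaled value after each library was rescaled to a total of 1000000, and can be compared between genes. Trem2 checks the labels and was higher in all 3 TREM2+ libraries (39.55, 40.8 and 30.7 TPM) than in all 3 TREM2- libraries (16.9, 20.5 and 21.15 TPM), with an adjusted p of 0.0855 in limma. Its transcripts were thus present in TREM2- libraries too. The 10 macrophage markers summed to 38100 to 49470 TPM in TREM2+ and 64670 to 82000 TPM in TREM2- libraries. Neutrophil markers summed to 16240 to 20440 TPM in TREM2+ and 20460 to 23630 TPM in TREM2- libraries, so both groups also carried transcripts typical of neutrophils. Within that list the secondary granule gene Camp fell (58.5 ± 29.2 TPM in TREM2+ and 190 ± 29.9 TPM in TREM2- libraries, adjusted p = 0.0308 in limma), and before adjustment 6 of 12 were lower and 2 higher at a p under 0.05, with a median log2 fold change of -1.04. Leaving out replicate 2 of TREM2+ or of TREM2- made the number that fell 4 and 5, and leaving out any 1 of the other libraries made it 0. The most abundant members did not move together, Retnlg having 5089 ± 1695 TPM in TREM2+ and 10480 ± 3729 TPM in TREM2- libraries and S100a9 7178 ± 1835 TPM in TREM2+ and 4206 ± 1072 TPM in TREM2- libraries. Both were named after their values were seen. A repeat family of transcripts took 0.704% to 17.5% of the TPM of TREM2+ and 0.427% to 24.6% of that of TREM2- libraries. In such bulk samples, fewer cells of a type and less RNA per cell cannot be told apart.

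The question was whether the receptors, their ligands, or both differed between TREM2+ and TREM2- macrophages. Axl and Gas6, a receptor and its ligand, rose in TREM2+ libraries, the receptor to 3.45 times and the ligand to 8.80 times the mean TPM of TREM2- libraries. Mertk averaged 3.99 times the TREM2- level without overlap of the groups but missed the threshold. For Pros1 and Mfge8 the groups overlapped, and Tyro3 was near the limit of detection. With limma on log2(TPM + 1) and Benjamini-Hochberg adjustment over 13788 genes, 2 of the 5 tested members passed upward and 0 downward at an adjusted p under 0.05, where 2.05% and 0.37% of all genes did. Before adjustment, 3 members were higher and 0 lower at a p under 0.05, as were 1027 and 736 of all 13788 genes. Voom on recovered reads called 3 members higher and 0 lower, where it called 444 and 173 genes in all. In 3 of the 5 every TREM2+ library lay above every TREM2- library, as in 9.07% of all genes tested, and in 0 below, as in 7.62%. Tested were genes that reached 1 TPM in 3 or more libraries. Tyro3 did not, and the other 5 did so in all 6 libraries.

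**Figure D1:**
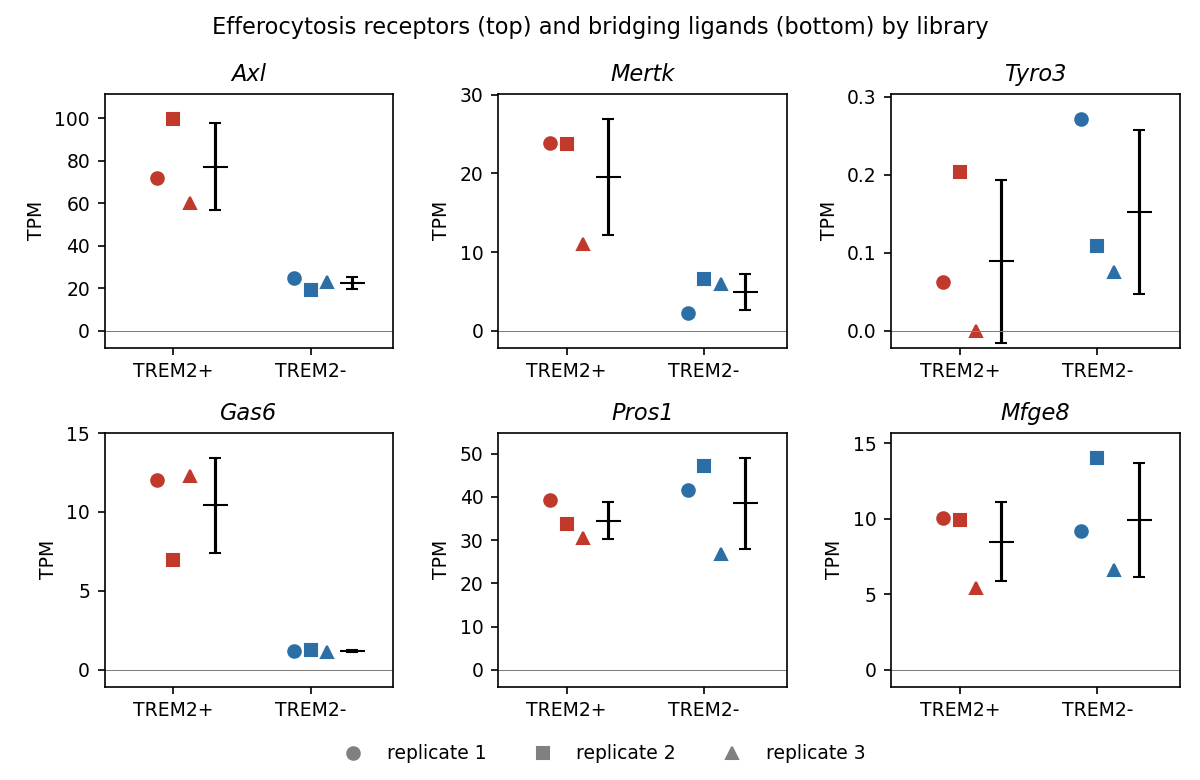
Level in TPM (vertical axes, linear, 1 panel per gene) of the receptors Axl, Mertk and Tyro3 and the ligands Gas6, Pros1 and Mfge8, with TREM2+ libraries in red and TREM2- libraries in blue; bars give the mean and SD of 3 libraries. The groups do not overlap for Axl, Mertk and Gas6, and overlap for Tyro3, Pros1 and Mfge8.

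Axl, the receptor tyrosine kinase that inflamed macrophages are known to carry, stood at 71.8, 99.6 and 60.1 TPM in TREM2+ replicates 1, 2 and 3, against 24.8, 19.3 and 23.0 TPM in TREM2- replicates 1, 2 and 3. The lowest TREM2+ library was thus well above the highest TREM2- library. The values rested on 1941 to 3574 reads in TREM2+ and 726 to 1111 reads in TREM2- libraries. The log2 fold change was 1.72 ± 0.25 (SE), with a 95% interval of 1.16 to 2.27 and an adjusted p of 0.00984 in limma. A larger increase was found for 153 genes, 1.11% of those tested. Leaving out any 1 of the 6 libraries kept the call of Axl, with log2 fold changes from 1.52 to 1.88. It was lost without both libraries numbered 3 (1.90, adjusted p = 0.145) and with replicate number as a block (1.72, adjusted p = 0.0555 in limma). Of 18 other settings 16 called it, with adjusted p-values from 0.000933 to 0.145 over the 18.

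Mertk, the receptor through which resting tissue macrophages are known to clear dying cells, measured 23.8, 23.8 and 11.1 TPM in TREM2+ libraries and 2.28, 6.53 and 5.91 TPM in TREM2- libraries. TREM2+ replicate 3 was the lowest of its group and TREM2- replicate 1 the lowest of all, with 88 reads. Its log2 fold change, 1.82 ± 0.40 with a 95% interval of 0.91 to 2.72, was of the size of that of Axl with a wider error, and the adjusted p was 0.056. Over 18 other settings the adjusted p ranged from 0.00586 to 0.243, and 6 settings called it. Among those were voom on recovered reads (2.09, adjusted p = 0.036) and the fits without TREM2+ replicate 3 (2.16, adjusted p = 0.0318) or without TREM2- replicate 2 (2.04, adjusted p = 0.0152). An antisense locus inside the gene, Gm14011, shares 0 exonic bases with it. It had 6.01, 3.72 and 1.55 TPM in TREM2+ libraries and 0.372, 0.444 and 0.515 TPM in TREM2- libraries, on 3 to 14 reads in TREM2+ libraries and 1 read in each TREM2- library. Its groups did not overlap and it did not pass (adjusted p = 0.0653 in limma). The snoRNA Gm23172, on the strand of Mertk, was above 0 in TREM2+ replicate 2 alone (1.13 TPM). The strand setting of the counting is not given in the sources used here, so intronic reads of Mertk cannot be told apart from reads of the antisense locus in the Gm14011 value.

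Tyro3, the receptor best known from the nervous system, was counted with 3, 9 and 0 reads in TREM2+ libraries and 15, 5 and 3 reads in TREM2- libraries. These are 0.0628, 0.204 and 0 TPM in the TREM2+ libraries and 0.2715, 0.108 and 0.0752 TPM in the TREM2- libraries. The floor used for the count of 0 in TREM2+ replicate 3 is 3 reads, or 0.0754 TPM, and the upper end of its exact 95% Poisson interval is 3.69 reads. Floors and intervals of reads cover counting error only. The groups overlapped, no fold is given, and a difference was not detectable at this depth.

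Gas6, the ligand of the whole receptor family, was at 12.02, 6.94 and 12.3 TPM in TREM2+ libraries and 1.19, 1.26 and 1.10 TPM in TREM2- libraries. All TREM2- libraries lay close together and TREM2+ replicate 2 was the lowest of its group. The TREM2- values rested on 18 to 27 reads, so that the lowest count of 18 has an exact 95% Poisson interval of 10.67 to 28.45 reads. Its log2 fold change was 2.35 ± 0.27, with a 95% interval of 1.74 to 2.96 and an adjusted p of 0.00521 in limma. On this scale the pseudocount of 1 TPM lies near the level in TREM2- libraries and understates the change. With a pseudocount of 0.1 it was 2.99, and 3.00 with voom on recovered reads. Only 42 genes, 0.305% of those tested, had a larger increase on the main scale. The call held whichever 1 of the 6 libraries was left out (2.22 to 2.59) and was lost without both libraries numbered 3 (2.19, adjusted p = 0.168), with a range of 0.000876 to 0.168 over the 18 settings. The gene Tmem255b on the opposite strand shares 34 exonic bases with Gas6 and lay between 0 and 0.213 TPM in all 6 libraries.

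Pros1, the anticoagulant protein S, was the most abundant ligand in every library. It had 39.2, 33.7 and 30.6 TPM in TREM2+ libraries and 41.55, 47.1 and 26.8 TPM in TREM2- libraries, and the groups overlapped. The log2 fold change was -0.12 ± 0.26, with an adjusted p of 0.915. Its 95% interval, -0.71 to 0.46, excludes an increase of the size measured for Gas6.

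Mfge8, the bridge to integrins, had 10.1, 9.89 and 5.44 TPM in TREM2+ libraries and 9.18, 14.0 and 6.59 TPM in TREM2- libraries. Here too the groups overlapped, and replicate 3 was the lowest of each. The log2 fold change was -0.19 ± 0.33 (95% interval -0.93 to 0.55, adjusted p = 0.885 in limma). With TREM2- replicate 2 left out the log2 fold changes of Pros1 and Mfge8 were 0.04 and 0.06, and without TREM2+ replicate 3 that of Mfge8 was 0.06, so no direction is given for either.

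**Figure D2:**
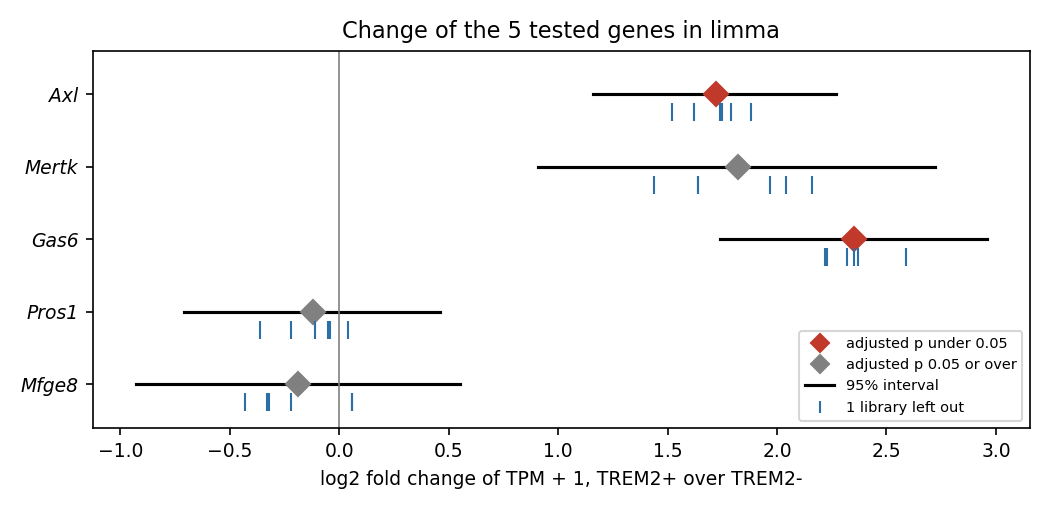
Log2 fold change of TPM + 1, TREM2+ over TREM2- (horizontal axis), of the 5 tested genes with the 95% interval of the limma fit (lines) and the values of the 6 fits that leave out 1 library (ticks). Axl at 1.72, Mertk at 1.82 and Gas6 at 2.35 lie apart from Pros1 at -0.12 and Mfge8 at -0.19.

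The order of levels differed between the groups. In TREM2+ libraries Axl came first (60.1 to 99.6 TPM), then Pros1 (30.6 to 39.2 TPM), Mertk (11.1 to 23.8 TPM), Gas6 (6.94 to 12.3 TPM), Mfge8 (5.44 to 10.1 TPM) and Tyro3. Mertk and Gas6, and Gas6 and Mfge8, had overlapping ranges there. In TREM2- libraries Pros1 came first (26.8 to 47.1 TPM), then Axl (19.3 to 24.8 TPM), Mfge8 (6.59 to 14.0 TPM), Mertk (2.28 to 6.53 TPM), Gas6 (1.10 to 1.26 TPM) and Tyro3, and no neighbours overlapped. Axl was thus above Pros1 in every TREM2+ library and below it in every TREM2- library.

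Summed over the receptors the level was 95.7, 123.6 and 71.1 TPM in TREM2+ libraries and 27.3, 26.0 and 29.0 TPM in TREM2- libraries, without overlap. Axl made up 75.0% to 84.45% of that sum in TREM2+ and 74.5% to 90.7% in TREM2- libraries. The sum of the ligands was 61.3, 50.6 and 48.3 TPM in TREM2+ libraries and 51.9, 62.4 and 34.45 TPM in TREM2- libraries, which overlap. Within that sum Gas6 took 19.6%, 13.7% and 25.4% in TREM2+ libraries and 2.29%, 2.02% and 3.19% in TREM2- libraries. Pros1 still took the most in every library, 63.3% to 66.7% in TREM2+ and 75.5% to 80.0% in TREM2-.

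**Figure D3:**
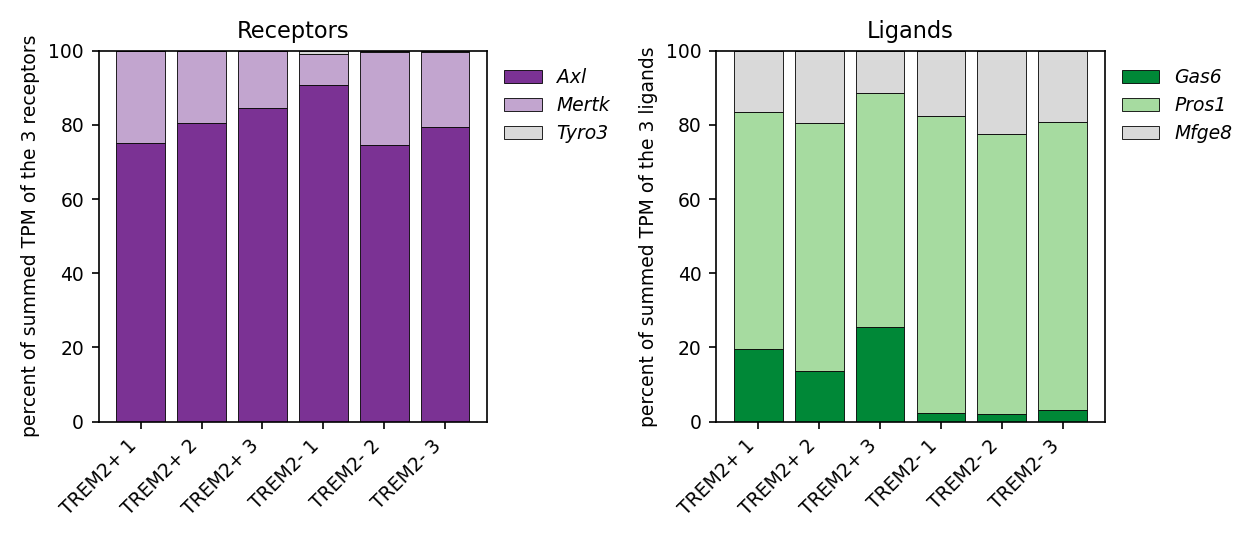
Share in percent of the summed TPM (vertical axes) taken by each receptor (left) and each ligand (right) in the 3 TREM2+ and the 3 TREM2- libraries. The share of Gas6 is 13.7% to 25.4% in TREM2+ libraries and 2.02% to 3.19% in TREM2- libraries, while the share of Axl overlaps between the groups.

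Whether members of one role changed unequally was tested on the difference of log2(TPM + 1) between 2 genes within a library, with an exact two-sided permutation test. Of 6 pairs 4 were tested, those with Tyro3 being left out, and p-values were adjusted over the 4. Gas6 over Pros1 averaged -1.67 ± 0.44 in TREM2+ and -4.14 ± 0.36 in TREM2- libraries (SD, n = 3 each), a difference of 2.47 with an exact p = 0.1, adjusted 0.2. Gas6 over Mfge8 averaged 0.27 ± 0.75 in TREM2+ and -2.27 ± 0.44 in TREM2- libraries, a difference of 2.54, also with an exact p = 0.1, adjusted 0.2. Groups of 3 cannot give a p below 0.1, and neither pair overlapped between the groups. Axl over Mertk averaged 1.97 ± 0.40 in TREM2+ and 2.07 ± 0.81 in TREM2- libraries, a difference of -0.10 with an exact p = 0.9. Pros1 over Mfge8 averaged 1.94 ± 0.32 in TREM2+ and 1.87 ± 0.19 in TREM2- libraries, a difference of 0.07 with an exact p = 0.9. These last differences were within the spread between libraries, and both changed sign when 1 library was left out.

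Of the cell type lists that follow, those of Kupffer cells, the resident macrophages of liver, and of sinusoidal endothelium had higher sums in TREM2+ libraries. The others did not. All 10 Kupffer cell markers passed upward, with a sum of 2406, 1299 and 1672 TPM in TREM2+ libraries and 360, 277 and 232 TPM in TREM2- libraries. Of 15 sinusoidal endothelial markers 12 passed upward (8 when any 1 TREM2+ replicate or TREM2- replicate 3 was left out), with a sum of 467, 332 and 363 TPM in TREM2+ libraries and 64.7, 48.7 and 32.4 TPM in TREM2- libraries. Of both lists 0 markers were at 0 in all libraries. Of 12 stellate cell and fibroblast markers 1 passed the filter, and the sum was 5.26 to 9.74 TPM in TREM2+ and 4.19 to 15.0 TPM in TREM2- libraries. Hepatocyte markers, from the main source of circulating protein S, summed to 221 to 593 TPM in TREM2+ and 112 to 839 TPM in TREM2- libraries, with 0 of the 11 that were tested called by limma, 0 at an unadjusted p under 0.05 and 0 by voom. Of 10 monocyte markers 1 fell, Ly6c2, with 156 ± 35.6 TPM in TREM2+ and 515 ± 194 TPM in TREM2- libraries (adjusted p = 0.0307 in limma, and 0 fell without TREM2+ replicate 3 or TREM2- replicate 1). Of the list 6 were lower without overlap of the groups, 6 were lower at an unadjusted p under 0.05 and the median log2 fold change was -0.94. The summed level overlapped (4258 to 31140 TPM in TREM2+ and 14970 to 76490 TPM in TREM2- libraries), and Chil3, named after its values were seen, made up much of it, at 13760 ± 12990 TPM in TREM2+ and 31850 ± 33100 TPM in TREM2- libraries. Dendritic cell markers summed to 72.5 to 93.4 TPM in TREM2+ and 110 to 283.5 TPM in TREM2- libraries, without overlap, and 1 of 10, Ccr7, fell. The number that fell was 1 without TREM2+ replicate 2 or TREM2- replicate 2 and 0 without any 1 of the rest. Before adjustment 4 dendritic cell markers were lower and 0 higher at a p under 0.05 in limma. Without overlap of the groups 4 were lower, and the median log2 fold change was -0.68. T and NK cell markers summed to 494 to 596 TPM in TREM2+ and 754 to 1753 TPM in TREM2- libraries, also without overlap, with 0 called by limma (1 lower when TREM2+ replicate 2 was left out), 3 lower at an unadjusted p under 0.05 and 1 lower by voom. B and plasma cell markers overlapped (211 to 267 TPM in TREM2+ and 136 to 721.5 TPM in TREM2- libraries).

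The members were set against the Kupffer cell and endothelial sums after their values were seen, and did not all behave alike. These ratios follow from the changes of the members and of the sums given above, so they are no separate test. Gas6 came to 2.57, 2.09 and 3.39 TPM per 100 TPM of endothelial markers in TREM2+ libraries and 1.84, 2.59 and 3.39 TPM in TREM2- libraries, so the groups overlapped on this scale. Per 100 TPM of Kupffer cell markers Gas6 stood at 0.499, 0.534 and 0.735 TPM in TREM2+ libraries and 0.33, 0.456 and 0.473 TPM in TREM2- libraries, all TREM2+ libraries being higher. Axl per 100 TPM of endothelial markers was lower in every TREM2+ library (15.4, 30.0 and 16.6 TPM) than in any TREM2- library (38.3, 39.7 and 71.2 TPM). Per 100 TPM of Kupffer cell markers it overlapped, at 2.98, 7.67 and 3.59 TPM in TREM2+ libraries and 6.88, 6.98 and 9.93 TPM in TREM2- libraries. Mertk overlapped on both scales. Among TREM2+ libraries, replicate 2 had the highest Axl and the lowest Gas6, Kupffer sum and endothelial sum. The part of these cells in the levels of Axl, Mertk and Gas6 was not tested.

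**Figure D4:**
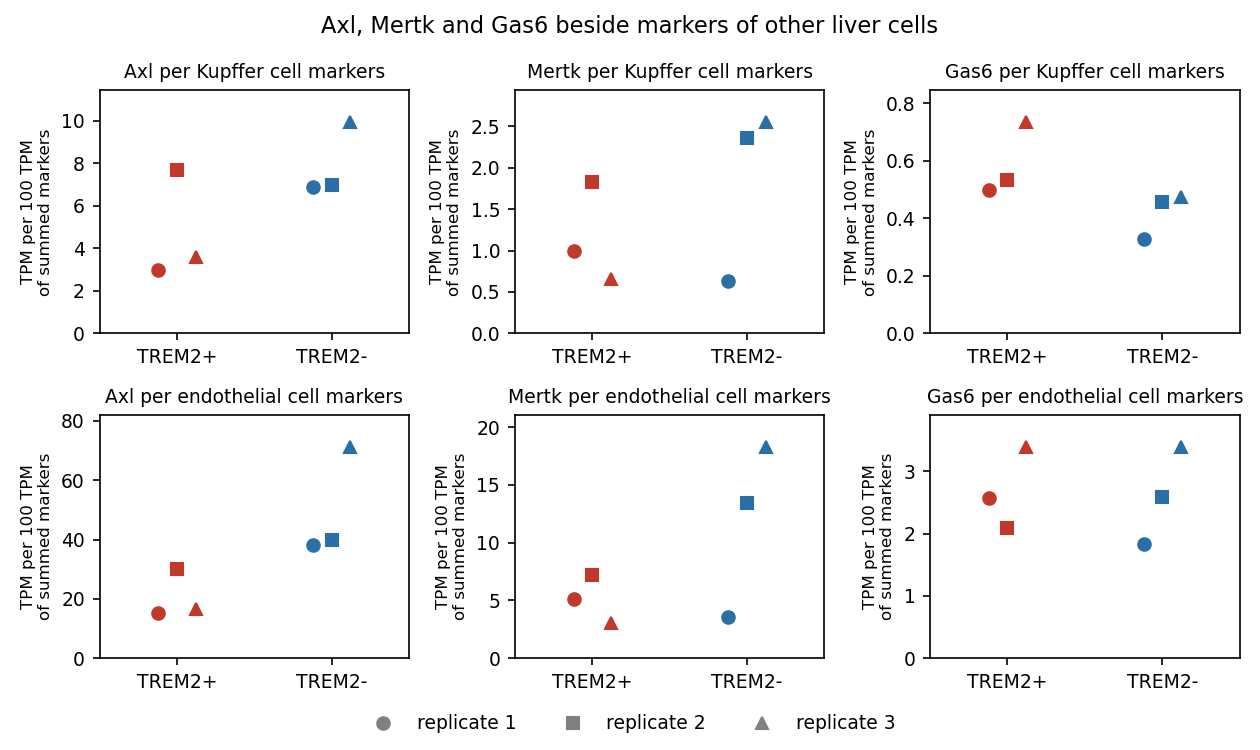
TPM of Axl, Mertk and Gas6 (columns) per 100 TPM of the summed Kupffer cell markers (top) and sinusoidal endothelial markers (bottom), by library, TREM2+ in red and TREM2- in blue. Gas6 per endothelial markers overlaps between the groups (2.09 to 3.39 TPM in TREM2+ and 1.84 to 3.39 TPM in TREM2- libraries), and Axl per endothelial markers is lower in TREM2+ libraries. The endothelial marker sum itself is higher in TREM2+ libraries.

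The genes most like each member in pattern were those with the smallest root mean square difference of centred log2(TPM + 1) over the 6 libraries, among 7512 genes with a mean TPM of at least 5. Nearest to Axl were Cxcl16, a chemokine that also serves as a scavenger receptor (difference 0.114, 298.5 ± 69.3 TPM in TREM2+ and 90.2 ± 18.01 TPM in TREM2- libraries), the matrix protease Mmp14 (0.139) and the transporter Abcc3 (0.142). Nearest to Mertk were the lysosomal protease Lgmn (0.204), Apoe (0.219) and the scavenger receptor Stab1 (0.227). Gas6 was closest to Cldn5, a tight junction gene of endothelium (0.115, 11.3 ± 3.00 TPM in TREM2+ and 1.16 ± 0.11 TPM in TREM2- libraries), then to Dmpk (0.175) and the complement gene C6 (0.181), which is in the Kupffer cell list. Pros1 was closest to Haus7 (0.047), Arcn1 (0.05) and Cyb5b (0.054), and Mfge8 to Pacsin2 (0.054), Edem1 (0.079) and Cry1 (0.085). Axl, Mertk and Gas6 were farther from each other, at 0.521 for Axl and Mertk, 0.562 for Axl and Gas6 and 0.697 for Mertk and Gas6. The nearest genes were picked as the closest of 7512, so this comparison cannot show whether the members share a pattern. Among TREM2+ libraries Axl was highest in replicate 2, Mertk lowest in replicate 3 and Gas6 lowest in replicate 2.

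Among 21 tested receptors of other kinds for phosphatidylserine and dying cells, 5 rose, 0 fell and 16 did not pass, with a median log2 fold change of 0.40 against -0.09 over all genes. With 1 library left out this count ran from 2 (without TREM2- replicate 3) to 7 (without TREM2- replicate 2). The lectin receptor Mrc1 rose by 2.45 ± 0.27 on the log2 scale, Stab2, a phosphatidylserine receptor of sinusoidal endothelium, by 2.29 ± 0.29, Cd36 by 2.03 ± 0.31 and Stab1 by 1.78 ± 0.30. The fifth to pass, Timd4, a phosphatidylserine receptor of resident macrophages, is also in the Kupffer cell list, as Stab2 is in the endothelial list. It was named after its values were seen and averaged 49.5 ± 22.4 TPM in TREM2+ and 12.9 ± 2.58 TPM in TREM2- libraries. The integrin subunits that MFGE8 binds, named after their values were seen, did not pass. Itgav had 5.90 ± 0.77 TPM in TREM2+ and 5.52 ± 2.55 TPM in TREM2- libraries, Itgb3 4.19 ± 1.33 TPM in TREM2+ and 5.15 ± 3.21 TPM in TREM2- libraries, and Itgb5 124 ± 59.6 TPM in TREM2+ and 61.7 ± 10.2 TPM in TREM2- libraries. Of these only Itgb5 did not overlap between the groups, with an adjusted p of 0.252 in limma.

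Of 11 other soluble bridging molecules that were tested, 4 rose and 0 fell in limma, before adjustment 4 were higher and 1 lower at a p under 0.05, as by voom, and the median log2 fold change was 0.56. Those that rose were the C1q subunit genes C1qa, C1qb and C1qc, whose protein opsonises dying cells, with log2 fold changes of 2.66 to 2.71, and the complement gene C4b (1.27 ± 0.26). With 1 library left out in turn, C4b was called in 1 of the 6 fits and each C1q gene in 6. Annexin A1 (Anxa1), named after its values were seen, had 315 ± 53.65 TPM in TREM2+ and 684 ± 232 TPM in TREM2- libraries without overlap (-1.08 ± 0.28, adjusted p = 0.102 in limma).

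Genes that act behind the receptors follow. Of 19 engulfment genes, which move actin around the bound cell, 0 passed in limma, 0 at an unadjusted p under 0.05 and 0 by voom. Their log2 fold changes ran from -0.57 (Dock2) to 0.39, and Elmo2 had -0.42 and Dock5 -0.54. In the list of 20 signalling genes below AXL and MERTK, 0 passed in limma and 0 by voom, and at an unadjusted p under 0.05 there were 1 higher and 1 lower. They ran from -0.71 (Plcg2) to 0.62 (Socs3), the suppressor of cytokine signalling, and Grb2 had 0.45. None of the 7 genes of the vitamin K cycle, which carboxylates GAS6 and protein S, passed (0 in limma, 0 at an unadjusted p under 0.05, 0 by voom). The carboxylase Ggcx had 4.49 ± 0.74 TPM in TREM2+ and 4.39 ± 0.90 TPM in TREM2- libraries, and the epoxide reductase Vkorc1 had 7.87 ± 2.16 TPM in TREM2+ and 5.54 ± 1.47 TPM in TREM2- libraries. Ggcx was named after its values were seen.

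Of 7 sheddases and partners, which can cut AXL and MERTK from the surface, 1 passed. It was Timp3, an inhibitor of such proteases, with 3.92 ± 1.46 TPM in TREM2+ and 0.582 ± 0.207 TPM in TREM2- libraries, and when each library was left out in turn it stayed called without TREM2- replicate 2 alone. The protease Adam8 had a log2 fold change of 0.70 ± 0.27 (adjusted p = 0.301 in limma). Adam10 and Adam17, the known sheddases of these receptors, had 63.1 ± 11.2 and 30.6 ± 1.31 TPM in TREM2+ libraries and 54.45 ± 10.8 and 28.1 ± 8.24 TPM in TREM2- libraries. Both were named after their values were seen.

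Further along the path, 3 of 23 phagosome and cargo genes rose, the cholesterol exporter Abca1 (1.73 ± 0.28), the glucose transporter Slc2a1 (1.22 ± 0.22) and the protease Ctsl (1.80 ± 0.37). Leaving out any 1 TREM2+ replicate, or TREM2- replicate 3, brought this count to 1. Of 12 find-me genes, which are receptors and the sphingosine kinases Sphk1 and Sphk2, 0 passed in limma and 0 by voom. At an unadjusted p under 0.05 there were 1 higher and 0 lower. The nucleotide receptor P2ry6 had a log2 fold change of 0.91 ± 0.34. In the list of 9 don't-eat-me genes 1 passed, the sialic acid receptor Siglec1 (1.36 ± 0.29), which is not itself known as a don't-eat-me signal. With each library left out in turn, Siglec1 was called without TREM2+ replicate 3 and in no other of these 6 fits. The receptor Sirpa and its ligand Cd47, named after their values were seen, had 0.20 ± 0.31 and -0.22 ± 0.29. Before adjustment 2 of the list were higher and 1 lower at a p under 0.05 in limma. Of 18 transcription factors linked to efferocytosis genes and their targets 4 rose, among them the oxysterol receptor Nr1h3 (1.91 ± 0.32), Maf (1.45 ± 0.25) and Abca1, which is in both lists. That count was 2 without TREM2+ replicate 1 or TREM2+ replicate 2 and 1 without TREM2- replicate 3. Nr1h3 is also in the Kupffer cell list.

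**Figure D5:**
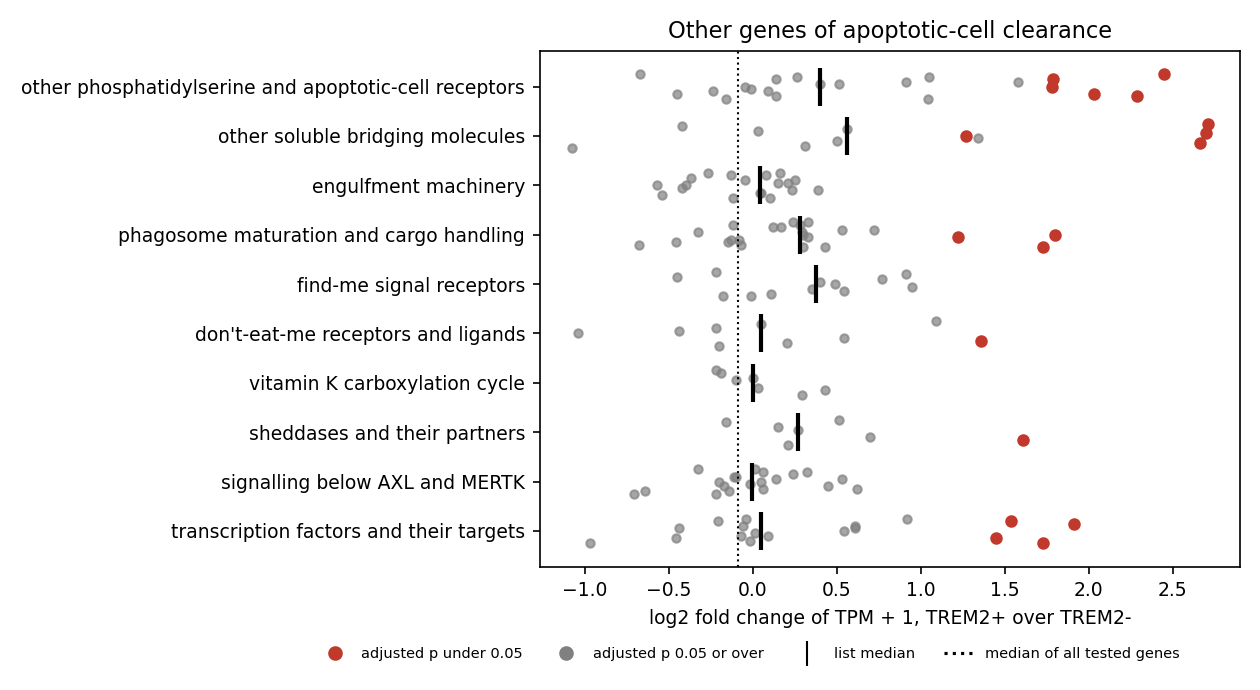
Log2 fold change of TPM + 1, TREM2+ over TREM2- (horizontal axis), of the tested genes of 10 lists of apoptotic-cell clearance (rows); red points passed an adjusted p under 0.05, black ticks are list medians and the dotted line is the median of all genes, -0.09. Genes that passed lie in the receptor, bridging, cargo and transcription factor lists, with 1 each in the don't-eat-me list (Siglec1) and the sheddase list (Timp3). The engulfment, find-me, vitamin K and signalling lists held 0.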

How the data were processed

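Per the labels' protocols, polyadenylated RNA of tumour macrophages, extracted with TRIzol, was sequenced with paired ends on an Illumina NovaSeq. The submitters' processing notes name STAR 2.7.10a, Subread, featureCounts 2.0.3 and mm10. Annotation, strand setting and formula: not given in the sources used here. Although named TPM, the deposited table has 6 columns that together sum to 1000000, so its values were read as deposited signal per exon length, each library still carrying its own depth. Each library was rescaled to 1000000 (TPM).

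Genes that reached 1 TPM in 3 or more libraries entered a limma fit (version 3.58.1, R 4.3.3) of log2(TPM + 1), with the variance allowed to follow the mean and two-sided tests, 3 TREM2+ against 3 TREM2- libraries, threshold 0.05. Errors of fold changes are standard errors of that fit, and errors of TPM are SDs with n = 3. Reads were recovered as signal times exon length in GENCODE M21 (53292 symbols matched). Of 36745 matched rows above 0, 98.7% were whole within 0.01 read. They served voom and counting intervals. RefSeq start regions matched all 6 members. 0 columns lacked a sample.

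The members, gene lists and settings were chosen with earlier results of these data known. Named were the members, Trem2, up to 4 genes per list with the smallest p, and 3 genes nearest in pattern to each tested member. Not all of the list genes so taken are reported here. The repeat family is Gm10800 plus the genes that share 10% or more of their 20-base stretches with it, 12 in all. Other settings covered pseudocount, filter, scaling, block, trend, library weights, voom, the repeat family and libraries left out.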

Additional observations from a re-analysis of the deposited data

How the results depend on the processing

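The count of 2 members called higher was 2 or 3 in 16 of 18 other settings, 1 with the replicate block and 0 without both libraries numbered 3, where limma called 0 genes in all (before adjustment 636 were higher and 444 lower at a p under 0.05, among them 3 members higher and 0 lower). With the block the adjusted p was 0.0555 for Axl and 0.0407 for Gas6. Axl, Mertk and Gas6 kept their direction in all 18, at 1.52 to 1.90, 1.44 to 2.32 and 2.19 to 3.00. Over all genes 282 were higher and 51 lower. Genes higher numbered 95 with no filter, 116 with the replicate block, 976 with library weights and 444 with voom, and 116 to 342 with 1 library left out. Genes lower numbered 31 with a pseudocount of 0.1, 3 with no filter, 92 on the deposited values, 80 with median-of-ratios scaling, 121 with quantile normalization, 10 with the block, 389 with library weights, 101 with the repeat family left out and 173 with voom, and 7 to 105 with 1 library left out. Beside these lower counts, 206 were higher on the deposited values, 284 with the repeat family left out, 421 with median-of-ratios scaling and 396 with quantile normalization. The cause of these shifts was not tested. With 1 library left out the log2 fold change of Pros1 ran from -0.36 to 0.04 and that of Mfge8 from -0.43 to 0.06, the difference of Axl over Mertk from -0.42 to 0.35 and that of Pros1 over Mfge8 from -0.10 to 0.21. With a pseudocount of 0.1 the difference of Gas6 over Pros1 was 3.11 and of Gas6 over Mfge8 3.20. Libraries of equal number correlated in their deviations at 0.188, -0.033 and 0.224 for numbers 1, 2 and 3. The values for numbers 1 and 3 were the highest of all pairs. TREM2+ replicate 2 correlated best with TREM2- replicate 3 (0.131). The repeat family took 0.704%, 5.05% and 17.5% in TREM2+ replicates 1, 2 and 3 and 0.427%, 12.9% and 24.6% in those of TREM2-. Depth fell from replicate 1 to 3 in both groups. The labels do not pair the libraries, and the main fit took them as unpaired. Whether libraries of equal number were handled together was not tested. Depth limits Tyro3, and Gas6 in TREM2- libraries.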
